A study of Mus musculus with 42 samples.

Results

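Goblet cells sorted from the distal colon of mice that lost the BMP receptor Alk3 in Gli1+ stromal cells (GA3M2) were compared with goblet cells from the distal colon of control mice (GWTM2). The comparison took the 4 distal goblet cell libraries of these genotypes, 2 per group, out of the 42 libraries of the study, and was described across all genes of their shared table. GWTM2 mice carried Gli1-CreERT2 and the Muc2-mCherry reporter. GA3M2 mice carried the same Gli1-CreERT2 and Muc2-mCherry alleles together with Alk3 fl/fl. Mice of both genotypes were 2 to 4 months old, of either sex, received tamoxifen on 5 consecutive days and were collected at day 30, so Cre and tamoxifen were shared by both groups. The Gli1 promoter drove Cre in stromal cells, and the sorted mCherry+ goblet cells were therefore not the cells targeted for deletion. The sources used here do not say how many mice went into a library, and p-values measure only the spread between these libraries, which may be technical. The other libraries of the study, from stromal cells, cytokine-treated organoids, the proximal colon and mice with stromal Smad4 deletion (GS4M2), served here only where a contrast with the distal Alk3 effect was needed.

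Bone morphogenetic proteins (BMPs) signal through paired receptors, of which Alk3, encoded by Bmpr1a, is a type I receptor that phosphorylates Smad1, Smad5 and Smad9, which enter the nucleus with Smad4. In the colon BMP signaling is strongest toward the luminal surface, and it restrains crypt proliferation and favors differentiation. Stromal cells both make and receive these ligands, and some just below the crypts secrete BMP antagonists. Goblet cells build the mucus layer: they package the gel-forming mucin Muc2 with proteins such as Fcgbp, Clca1, Tff3 and Zg16, and decorate Muc2 with O-glycans before secretion. The question of the comparison was what changes in goblet cells when the surrounding stroma no longer senses BMP through Alk3.

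Among mucus genes a few, such as Ang4, Clca1 and Muc2, were lower by a large amount in GA3M2, while others, such as Zg16 and Tff3, overlapped with the controls. Muc2 measured 41156 and 109532 normalized counts in GWTM2 libraries 1 and 2 and 16015 and 12294 in GA3M2 libraries 1 and 2. Both GA3M2 libraries lay below both controls, with a log2 fold change of -2.26 ± 0.47 (SE, n = 2 and 2). Ang4, a secreted antimicrobial ribonuclease, Clca1, a mucus-processing metalloprotease, and Mptx1, a mucosal pentraxin, were lower by larger amounts than Muc2, while Clu (clusterin), Cldn4 (a tight junction claudin), Ly6g and Arg1 (arginase) were higher. None of these passed limma with adjustment over all genes. Each was called by DESeq2 on the recovered reads, which called 240 of 13082 genes tested (1.83%). Values are normalized counts, that is, reads divided by a size factor of the library, and fold changes are on the log2(normalized count + 1) scale, which understates the change of low genes.

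Upstream sequences of 4 genes whose levels differed between genotypes are shown because the genes differ in opposite directions and carry a match to a common regulatory motif. The genes were chosen after their values were seen. The 250 bases before the annotated start are from RefSeq, build GRCm38.p6, written 5′ to 3′ on the strand of the gene, with motif matches in capitals. For Muc2, Ang4 and Cldn4 the capitals mark the AP-1 motif, searched loosely as TGANTCA with any base in the middle. The Muc2 match, TGAATCA, has A there, while those of Ang4 and Cldn4 have C. For Isg15, an interferon-stimulated ubiquitin-like modifier, they mark the interferon-stimulated response element. It was searched as a pair of GAAA runs with any 2 bases between them. Both motifs were searched on both strands.
Muc2 (chr7:141690090-141690339, + strand): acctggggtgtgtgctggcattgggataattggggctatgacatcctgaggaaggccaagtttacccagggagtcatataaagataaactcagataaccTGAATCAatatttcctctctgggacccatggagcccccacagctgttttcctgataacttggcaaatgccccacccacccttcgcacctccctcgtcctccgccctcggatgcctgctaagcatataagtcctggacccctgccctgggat
Ang4 (chr14:51773591-51773840, − strand): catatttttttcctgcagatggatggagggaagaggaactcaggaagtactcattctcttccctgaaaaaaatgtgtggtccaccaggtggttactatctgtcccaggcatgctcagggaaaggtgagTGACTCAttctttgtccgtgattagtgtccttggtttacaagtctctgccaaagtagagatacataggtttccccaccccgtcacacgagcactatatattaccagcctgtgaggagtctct
Cldn4 (chr5:134946935-134947184, − strand): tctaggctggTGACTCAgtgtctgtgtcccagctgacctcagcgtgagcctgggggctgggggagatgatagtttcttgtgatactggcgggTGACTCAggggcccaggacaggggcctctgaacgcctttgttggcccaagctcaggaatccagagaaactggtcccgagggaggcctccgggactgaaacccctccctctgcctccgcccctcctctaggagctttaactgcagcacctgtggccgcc
Isg15 (chr4:156200819-156201068, − strand): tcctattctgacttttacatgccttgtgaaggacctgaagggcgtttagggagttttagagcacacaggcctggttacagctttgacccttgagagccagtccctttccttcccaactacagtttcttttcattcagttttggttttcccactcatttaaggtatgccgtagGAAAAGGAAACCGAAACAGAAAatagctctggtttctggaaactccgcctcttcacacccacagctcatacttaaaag
The Muc2 match began 151 bases before the start, the Ang4 match 122 bases, the Cldn4 matches 240 and 158 bases, and the Isg15 matches, which overlap each other, 78, 72 and 66 bases. Among all 32851 RefSeq promoters of this length, 2217 (6.75%) held TGANTCA and 978 (2.98%) held the GAAA pair. A match describes the sequence only; binding was not measured in these libraries.

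Bmpr1a, the gene that encodes Alk3, could not check the labels, since it was deleted in stromal and not in goblet cells. It measured 1588 and 1868 normalized counts in GWTM2 and 1372 and 1410.0 in GA3M2. Both GA3M2 libraries were below both controls, by -0.31 ± 0.15 (SE) on the log2 scale, with a limma adjusted p of 0.49. Gli1 had no row in the table. All 18 goblet cell markers had a row and were tested. Muc2 itself drove the reporter that set the gate, so its level and the choice of cells are not independent. In these bulk libraries, fewer cells of a type and less RNA per cell cannot be told apart.

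Markers of macrophages, other immune cells and stromal cells were at low levels. The 31 of 32 absorptive colonocyte genes with a row were not low. They summed to 174000 and 243000 normalized counts in GWTM2 and 183000 and 223000 in GA3M2. Of 15 macrophage markers 8 had a row, and their summed level was 128 and 76.5 normalized counts in GWTM2 and 634 and 829 in GA3M2. The sum was higher in both GA3M2 libraries, and in GA3M2 most of it came from Lyz2 (lysozyme) and Spp1 (osteopontin). Among defining macrophage genes, C1qa measured 9.6 and 3.28 in GWTM2 and 19.6 and 24.9 in GA3M2, Tyrobp was at 0 in both controls against 12.7 and 8.63 in GA3M2, and Adgre1 and Csf1r had no row. The 5 of 20 other immune markers with a row summed to 56.6 and 50.3 in GWTM2 and 89.1 and 147 in GA3M2. The 7 of 20 stromal markers with a row summed to 288 and 448 in GWTM2 and 220 and 215 in GA3M2. DESeq2 called 1 of them, the pericyte receptor gene Pdgfrb, lower (against 0.703% of all genes). The part of these cells in the gene differences below was not tested.

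Recovered reads per library were 15989351 to 17648682, and the 10 genes with most reads took 6.36 to 10.3% of them, so depth was nearly even. A count of 3 reads, used as the floor, corresponded to 2.88 to 3.28 normalized counts. GWTM2 library 1 lay closer to GA3M2 library 1 than to the other control. Across genes, the log2 values correlated with r = 0.954 between the 2 GWTM2 libraries, 0.976 between the 2 GA3M2 libraries and 0.966 between GWTM2 library 1 and GA3M2 library 1. These correlations are across genes of 1 table, and genes are not independent replicates. Between the 2 GWTM2 libraries 343 genes were more than 2 log2 units apart, and between the 2 GA3M2 libraries 138. Sex differed as well: Xist, the RNA that silences an X chromosome in females, measured 20206 and 14.2 in GWTM2 and 1.96 and 5.75 in GA3M2, and the Y-linked helicase gene Ddx3y 0 and 1442 in GWTM2 and 979 and 1095 in GA3M2. GWTM2 library 1 had the female pattern and the 3 others the male pattern, so sex and library cannot be told apart within the controls. Only the control group held a library of the female pattern, so sex was also unbalanced between the genotypes. A sex difference can therefore enter any fold change between them.

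The table listed 14252 genes, of which 13082 had a mean of at least 10 and were tested. Fitted levels were higher in GA3M2 for 50.1% of the genes, with a median log2 fold change of 0.000835, a centering that the size factors set. A gene was called where its adjusted p was under 0.05 and its level differed by 1 log2 unit or more, and limma called 0 genes (0%) with a smallest adjusted p of 0.121. At the same fold and an unadjusted p under 0.05, 539 genes passed (4.12%), of which 313 (2.39%) were higher and 226 (1.73%) lower in GA3M2. DESeq2 on the recovered reads called 240 genes (1.83%), 148 (1.13%) higher and 92 (0.703%) lower. edgeR called 0 genes on the 4 libraries, where 552 passed at an unadjusted p and the same fold. When the spread was estimated over 11 goblet cell libraries, edgeR called 85 of 12812 genes (0.663%), 48 (0.375%) higher and 37 (0.289%) lower, 79 of which were also called by DESeq2. An exact permutation test of a single gene with 2 libraries against 2 cannot give a two-sided p below 0.333. The GA3M2 libraries lay wholly above or wholly below the controls for 5788 genes (44.2%), 2886 (22.1%) above and 2902 (22.2%) below, so a lack of overlap alone is common here. All 240 genes called by DESeq2 were among them.

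Because the controls disagreed, each was also left out in turn, with the lone control assumed to vary like the GA3M2 pair. Both of these fits used the same GA3M2 libraries and the same spread, so their calls are not independent of each other. Without GWTM2 library 1, which leaves 3 libraries of the male pattern, limma called 640 genes, 379 of them higher in GA3M2. Without GWTM2 library 2 it called 308, 188 of them higher. The same 135 genes were called in the same direction against either control, 102 higher and 33 lower, which is 21.1% of the first set and 43.8% of the second. Another 16 were called in opposite directions. Of the 135 genes, 125 were also called by DESeq2 and 55 by edgeR over 11 libraries. Leaving out either GA3M2 library gave 0 calls.

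**Figure D1:**
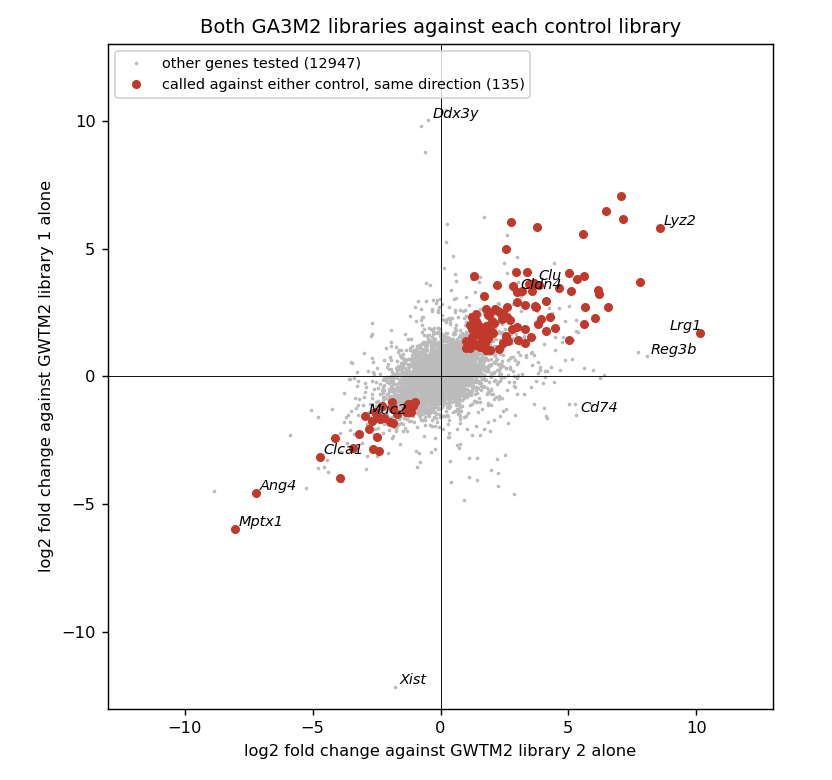
Log2 fold change of GA3M2 against GWTM2 library 2 alone (x axis) and against GWTM2 library 1 alone (y axis) for the 13082 genes tested. The 135 genes called in the same direction against either control (red) lie in the upper right and lower left quadrants, while Xist, Ddx3y and Cd74, far from the diagonal, differ between the 2 controls.

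Muc2 lies at chr7:141690340-141754693 (GRCm38). Its log2 fold change was -2.96 without GWTM2 library 1 and -1.55 without GWTM2 library 2, with adjusted p = 4.8e-06 by DESeq2 and 0.045 by edgeR over 11 libraries. Clca1 (chr3:145003817-145032776) measured 102568 and 309850.0 normalized counts in GWTM2 and 19496 and 6969 in GA3M2. Both mutants were far below the lower control, with a log2 fold change of -3.93 ± 0.68 (SE), -4.73 and -3.14 without each control, and adjusted p = 0.006 by DESeq2 and 0.059 by edgeR over 11 libraries. Fcgbp, the Fc gamma binding protein that cross-links to the Muc2 network, measured 187351 and 484616 in GWTM2 and 102184 and 68243 in GA3M2. Here too GWTM2 library 2 was the highest, and the log2 fold change of -1.85 ± 0.52 (SE) shrank to -1.17 without it (DESeq2 adjusted p = 0.00059). Muc4, a membrane mucin that binds ErbB2, was even within groups, with 17716 and 16451 in GWTM2 and 7897 and 5902 in GA3M2. Its log2 fold change of -1.32 ± 0.19 (SE) stayed between -1.38 and -1.27 without either control (adjusted p = 4.5e-07 by DESeq2, 0.033 by edgeR over 11 libraries).

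Not all mucus products were lower. Zg16, a lectin of the mucus layer, measured 148631 and 101859 in GWTM2 and 148072 and 72598 in GA3M2, and Tff3, the trefoil peptide of goblet cells, 33103 and 17723 in GWTM2 and 30388 and 12829 in GA3M2. For both genes the groups overlapped. Agr2, the disulfide isomerase needed for Muc2 folding, measured 51671 and 41066 in GWTM2 and 34286 and 20694 in GA3M2, a log2 difference of -0.79 that DESeq2 did not call (adjusted p = 0.17). Atoh1, the transcription factor that specifies secretory cells, was lower in both GA3M2 libraries, at 3893 and 3053 in GA3M2 against 5565 and 5353 in GWTM2, with DESeq2 adjusted p = 0.045 and a log2 fold change of -0.66 that is below the fold required for a call. Spdef, which drives goblet maturation, measured 6778 and 4034 in GWTM2 and 10213 and 6422 in GA3M2, and its groups overlapped. Spink4, a protease inhibitor of goblet granules, and Dmbt1, a scavenger receptor protein of mucus, lay higher in both GA3M2 libraries by 0.61 and 0.80, below the fold for a call, with DESeq2 adjusted p = 0.039 and 0.0067. Tgm3, a transglutaminase that cross-links mucus, measured 1344 and 2594 in GWTM2 and 253 and 854 in GA3M2, with DESeq2 adjusted p = 0.4.

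As a list, the 18 goblet cell markers had 13 lower and 5 higher fitted levels, 9 of them wholly below and 1 wholly above the controls (against 22.2% and 22.1% of all genes), and a median log2 fold change of -0.413. DESeq2 called 3 of them lower (against 0.703% of all genes), namely Muc2, Clca1 and Fcgbp. Their summed level was 717000 and 1200000 normalized counts in GWTM2 and 531000 and 325000 in GA3M2, so both mutants were below the lower control. The median was -0.34 without GWTM2 library 1 and -0.48 without GWTM2 library 2. Of 12 mucus proteins other than mucins tested, 8 were lower and 4 higher, with a median of -0.387.

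**Figure D2:**
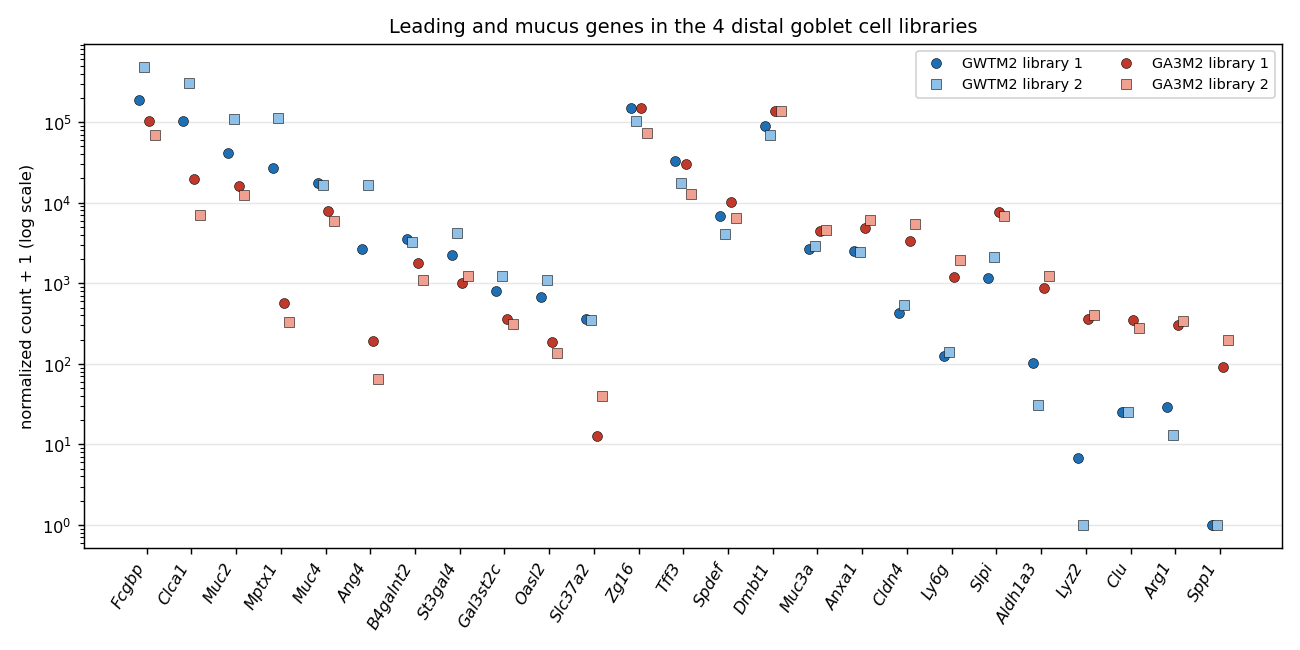
Normalized count + 1 (log axis) of 25 genes in each GWTM2 and GA3M2 distal goblet cell library, one point per library. For Clu, Ly6g and Cldn4 the GA3M2 libraries lie above both controls, for Mptx1, Clca1 and Muc2 below both, and for Muc2, Mptx1 and Clca1 the 2 controls also lie apart from each other.

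The mucins did not share a direction. Of 16 mucin genes 9 were tested, 6 with a higher and 3 with a lower fitted level and a median log2 fold change of 0.152. Besides Muc2 and Muc4, the gastric-type mucin Muc6 was lower, at 49.9 and 109 normalized counts in GA3M2 against 165 and 208 in GWTM2, a log2 fold change of -1.31 with DESeq2 adjusted p = 0.22. The membrane mucin Muc3a was higher, at 4491 and 4578 in GA3M2 against 2695 and 2905 in GWTM2. Its log2 fold change of 0.70 ± 0.13 (SE) was between 0.64 and 0.75 without either control and had adjusted p = 0.0034 by DESeq2 and 0.044 by edgeR over 11 libraries, but lay below the fold for a call. Muc5b, a gel-forming mucin of airways, was close to the floor, at 7.68 and 3.28 in GWTM2 and 22.5 and 42.2 in GA3M2, with DESeq2 adjusted p = 0.18. The GA3M2 and GWTM2 values of the membrane mucins Muc3, Muc13 and Muc20 overlapped, with log2 fold changes of 0.38, 0.14 and 0.15. Muc3 and Muc3a are near-identical in part, and how reads were split between such copies is uncertain.

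The study named 7 mucin-related genes and 7 transport genes, chosen with these samples in view, so their counts are not independent evidence of a direction. It reported the mucin-related genes as increased and the transport genes as decreased, with most of the change in the proximal colon. In proximal GA3M2 against GWTM2 the medians of the 2 lists were 0.6 and -1.58. Of the mucin-related genes 6 were tested, with 5 higher and 1 lower and a median of 0.269, while Muc19 had no row. Only Muc2 was called by DESeq2, as lower (against 0.703% of all genes). Of the transport genes 6 were tested, with 1 higher and 5 lower and none called by DESeq2, and the organic anion transporter gene Slco3a1 had no row. Their median of -0.656 was -1.39 without GWTM2 library 1 and 0.0521 without GWTM2 library 2, so its sign depended on the control. Slc16a9, a monocarboxylate transporter, measured 43.2 and 144 in GWTM2 and 15.7 and 25.9 in GA3M2, without overlap and with a log2 fold change of -1.92. Slc26a3, the chloride and bicarbonate exchanger of colonocytes, measured 1191 and 6721 in GWTM2 and 764 and 2159.6 in GA3M2, Chp2, a calcineurin-like cofactor of sodium and proton exchange, 551 and 2292 in GWTM2 and 363 and 1043 in GA3M2, and Sult1c2, a cytosolic sulfotransferase, 114 and 396 in GWTM2 and 185 and 265 in GA3M2. In each of these 3 genes the groups overlapped and GWTM2 library 2 was the highest. Slc16a10, an aromatic amino acid transporter, differed by -0.24 on the log2 scale.

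The genes that build and fold mucins had no common direction under both controls. Of 30 mucin O-glycosylation enzymes tested, 14 were higher and 16 lower, with a median of -0.0263. That median was 0.0115 without GWTM2 library 1 and -0.184, with 22 genes lower, without GWTM2 library 2. DESeq2 called 3 of the 30, all lower, against 0.703% of all genes. These were Gal3st2c, a galactose sulfotransferase, at 360.2 and 309 normalized counts in GA3M2 against 791 and 1222 in GWTM2, B4galnt2, which adds the terminal GalNAc of the Sda antigen, at 1809 and 1100.4 in GA3M2 against 3506 and 3254 in GWTM2, and St3gal4, a sialyltransferase, at 993 and 1236 in GA3M2 against 2224 and 4186 in GWTM2. Their log2 fold changes were -1.56 ± 0.25, -1.26 ± 0.25 and -1.46 ± 0.32 (SE), with DESeq2 adjusted p = 3.8e-05, 0.002 and 0.001. Gal3st2c and B4galnt2 were also called by edgeR over 11 libraries. A4gnt, which caps O-glycans with α-linked GlcNAc and was not in that list, went the other way, at 2611 and 2337 in GA3M2 against 677 and 1045 in GWTM2 (log2 fold change 1.55 ± 0.23, SE, DESeq2 adjusted p = 9.5e-06). Of 29 secretory folding and stress genes tested, 9 were higher and 20 lower, with a median of -0.0953 and 0 called by DESeq2. That median was 0.0448 without GWTM2 library 1, -0.341 with 23 genes lower without GWTM2 library 2, and -0.406 without GA3M2 library 1. Ern1, the stress sensor IRE1α, had the smallest p of that list, at 1371 and 1288 in GA3M2 against 2107 and 2677 in GWTM2, with a log2 fold change of -0.84 and adjusted p = 0.0067 by DESeq2. The 18 secretory lineage regulators tested split 9 to 9, with a median of -0.0285 and 0 called by DESeq2.

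The Clca family, secreted proteins once described as calcium-activated chloride channel regulators and clustered on chromosome 3, diverged within itself. Of 7 members tested 2 were higher and 5 lower, with a median of -0.202. Clca2 measured 34.6 and 64.5 normalized counts in GWTM2 and 1.96 and 0 in GA3M2. Summed reads gave a ratio of 50.1 (13.5 to 419.9) for GWTM2 over GA3M2, with the 95% interval covering counting error only, and DESeq2 adjusted p = 0.0023. Clca3b was lower by a smaller amount, -0.44. Clca4b measured 1312 and 109 in GWTM2 and 5601 and 5190.4 in GA3M2, and Clca4a 341 and 3019 in GWTM2 and 3067 and 6813 in GA3M2. Both were higher in each GA3M2 library, by 3.82 and 2.17, the controls differed widely, and DESeq2 called neither (adjusted p = 0.38 and 0.79). The control values stood in opposite order in these neighbors, GWTM2 library 1 being the higher for Clca4b and GWTM2 library 2 for Clca4a, and reads of these close copies may be shared.

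Among genes with a lower level, Mptx1 (chr1:174330518-174332873) had the lowest log2 fold change of all genes tested. It measured 27159 and 113489 normalized counts in GWTM2 and 574 and 327 in GA3M2. The log2 fold change was -7.00 ± 0.68 (SE), -8.03 and -5.97 without each control, with adjusted p = 5.9e-11 by DESeq2 and 0.029 by edgeR over 11 libraries. Ang4 (chr14:51763878-51773590) measured 2624 and 16580.2 in GWTM2 and 193 and 63.3 in GA3M2, with a log2 fold change of -5.89 ± 0.94 (SE), adjusted p = 0.00019 by DESeq2 and 0.037 by edgeR over 11 libraries. Mptx1 and Ang4 have close paralogs, and the counts of each are uncertain to that extent. Slc37a2, a sugar phosphate transporter, was even in the controls, at 356 and 345, and measured 11.7 and 39.3 in GA3M2. Its log2 fold change of -3.96 ± 0.57 (SE) hardly changed without either control (DESeq2 adjusted p = 1.8e-09).

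Other genes with the most negative fold changes had low levels in GA3M2, and most also in GWTM2. Slc30a10, a manganese exporter, measured 22.1 and 35 in GWTM2 and 0 and 1.92 in GA3M2, a read ratio of GWTM2 over GA3M2 of 29 (7.66 to 246) with its 95% interval. Pcdh17, a protocadherin, measured 42.2 and 522 in GWTM2 and 5.87 and 10.5 in GA3M2, with GWTM2 library 2 far above the other libraries. Pbld1 measured 27.8 and 65.6 in GWTM2 and 4.89 and 0 in GA3M2, and Apol9b, an apolipoprotein L gene, 28.8 and 65.6 in GWTM2 and 3.91 and 0.959 in GA3M2. DESeq2 called these 4 genes lower, with adjusted p = 0.036, 0.038, 0.029 and 0.007. The basement membrane gene Nid2 measured 60.5 and 125 in GWTM2 and 27.4 and 0 in GA3M2, and H60c, an NKG2D ligand, 71 and 60.1 in GWTM2 and 16.6 and 0 in GA3M2. In both the GA3M2 libraries themselves stood apart, 1 of them at 0, and DESeq2 did not call them (adjusted p = 0.81 and 0.24).

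Among genes with a higher level, the largest log2 fold changes included genes usually read as myeloid. Lyz2 measured 5.76 and 0 normalized counts in GWTM2 and 362 and 401 in GA3M2 (DESeq2 adjusted p = 0.00046). Spp1 was at 0 in both controls and at 90 and 198 in GA3M2, at least 46.8-fold higher. Chil3, a chitinase-like protein, was at 0 in both controls and at 89.1 and 88.2 in GA3M2, at least 28.8-fold higher. Gpnmb, a lysosomal membrane glycoprotein, was at 0 in both controls and at 38.2 and 56.6 in GA3M2, at least 15.4-fold higher. Bounds use a floor of 3 reads per library, and DESeq2 called all 4 of these genes. Their values moved with the summed macrophage markers given above, of which Lyz2 and Spp1 are members, and the part of macrophages in them was not tested. Lyz2 shares sequence with Lyz1. Il5ra, an interleukin-5 receptor subunit, measured 0.96 and 0 in GWTM2 and 28.4 and 35.5 in GA3M2, a read ratio of GA3M2 over GWTM2 of 62.5 (10.8 to 2507) with its 95% interval.

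Other named genes with large positive values had various roles, and gene models without a proper name were left out. Plat, tissue plasminogen activator, measured 5.76 and 1.09 in GWTM2 and 120.4 and 87.2 in GA3M2, with a log2 fold change of 4.78 ± 0.71 (SE) and DESeq2 adjusted p = 9.4e-07. The gamma-glutamyltransferase gene Ggt1 measured 0 and 3.28 in GWTM2 and 30.3 and 106 in GA3M2, a read ratio of GA3M2 over GWTM2 of 44.9 (15 to 220.1) with its 95% interval, and the acyl-CoA synthetase gene Acsbg1 1.92 and 0 in GWTM2 and 25.4 and 62.3 in GA3M2, a ratio of 43.1 (11.6 to 361). Prkd1, a protein kinase, measured 5.76 and 0 in GWTM2 and 80.3 and 60.4 in GA3M2, and Dmtn, an actin-binding protein, 13.4 and 0 in GWTM2 and 93 and 93 in GA3M2. DESeq2 called these 5 genes higher. Eno1b, an enolase copy whose reads may be shared with Eno1, measured 93.1 and 10.9 in GWTM2 and 875 and 873 in GA3M2 (DESeq2 adjusted p = 0.048). Prss22, a serine protease, measured 16.3 and 0 in GWTM2 and 196 and 257 in GA3M2, and its log2 fold change of 5.76 was not called by DESeq2 (adjusted p = 0.35).

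Most genes of epithelial repair and of squamous-type epithelium had higher fitted levels. Of 21 tested, 18 were higher and 3 lower, 8 lay wholly above and 1 wholly below the controls (against 22.1% and 22.2% of all genes), and the median log2 fold change was 0.634 beside 0.000835 over all genes. DESeq2 called 6 higher (against 1.13% of all genes) and 0 lower, and edgeR over 11 libraries 3 higher (against 0.375%). The median was 0.794 without GWTM2 library 1, 0.599 without GWTM2 library 2, 1.02 without GA3M2 library 1 and 0.393 without GA3M2 library 2. Clu, a secreted chaperone that marks revival stem cells after injury, measured 24 and 24 in GWTM2 and 353 and 281 in GA3M2. The controls were even, and the log2 fold change of 3.66 ± 0.29 (SE) was the same against either one, with adjusted p = 5e-18 by DESeq2 and 0.013 by edgeR over 11 libraries. Anxa1, a pro-resolving annexin, measured 2529 and 2436 in GWTM2 and 4816 and 6176 in GA3M2 (1.14), Sprr1a, a cornified envelope protein, 182 and 161 in GWTM2 and 530.5 and 759 in GA3M2 (1.88), and Plaur, the urokinase receptor, 308 and 153 in GWTM2 and 917 and 897 in GA3M2 (2.06). The EGF receptor ligand gene Areg measured 607 and 288 in GWTM2 and 1055 and 1150.2 in GA3M2 (1.39). These 5 genes were among the 6 that DESeq2 called, with adjusted p of 0.029 for Areg and under it for the other 4.

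Single genes outside that list were also called. They were named after their values were seen, except where a gene list already held them, and stand for no group. Cldn4 (chr5:134945119-134946934) measured 425 and 534 in GWTM2 and 3333 and 5382 in GA3M2, with a log2 fold change of 3.15 ± 0.27 (SE), DESeq2 adjusted p = 2.9e-22 and 0.034 by edgeR over 11 libraries. Ly6g, a GPI-anchored Ly6 protein, measured 125 and 139 in GWTM2 and 1203 and 1965 in GA3M2 (3.54 ± 0.27, SE, DESeq2 adjusted p = 6.4e-25). Vill, a villin-like actin regulator, measured 212 and 262 in GWTM2 and 1134 and 1362 in GA3M2 (2.39 ± 0.20, SE, DESeq2 adjusted p = 4.7e-18). In these 3 genes the controls were close to each other and each GA3M2 library was several-fold above them. The laminin subunit gene Lama3 measured 249 and 214 in GWTM2 and 1528 and 4248 in GA3M2 (3.46), and Marcksl1, an actin-binding protein, 488 and 216 in GWTM2 and 2903 and 4859.7 in GA3M2 (3.53). Arg1, which cleaves arginine to ornithine, measured 27.8 and 12 in GWTM2 and 301 and 336 in GA3M2 (4.04 ± 0.45, SE), with adjusted p = 1.6e-14 by DESeq2 and 0.013 by edgeR over 11 libraries. It was the only member that DESeq2 called among 14 urea cycle and polyamine genes (against 1.13% of all genes called higher). Of the 14, 11 were higher and 3 lower, with a median of 0.199.

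**Figure D3:**
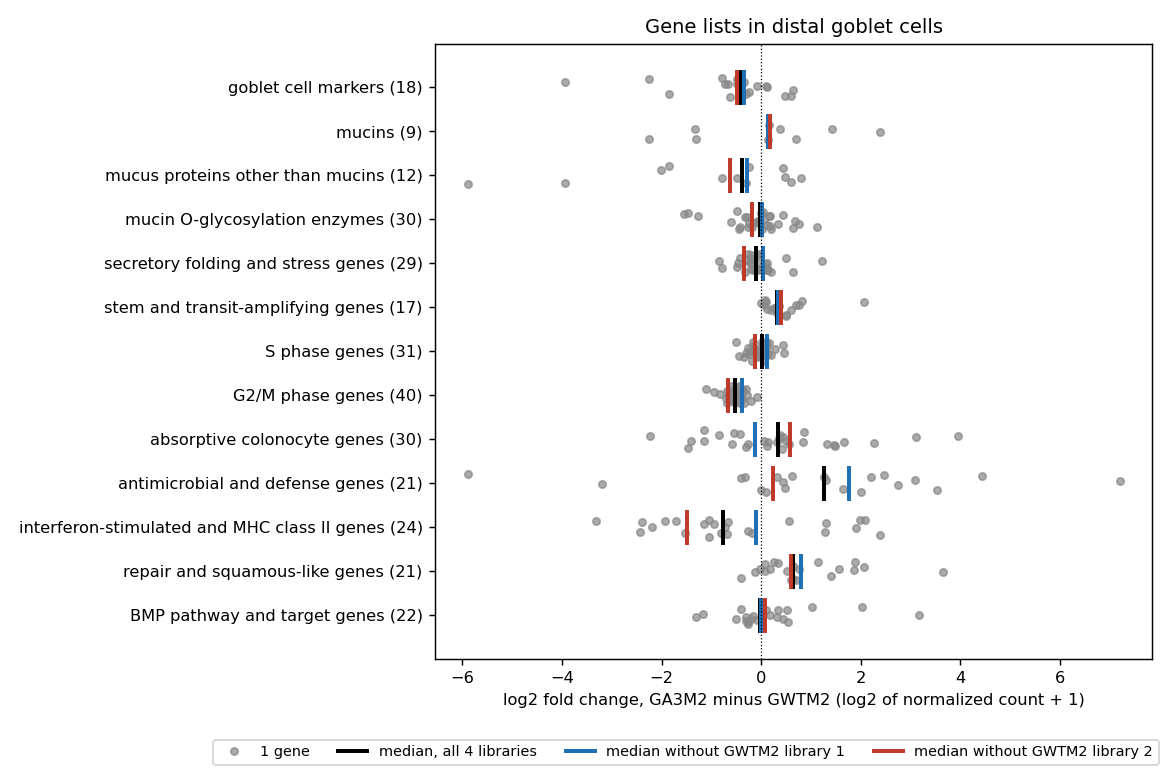
Log2 fold change of GA3M2 against GWTM2 for the tested genes of 13 lists (points), with each list's median over the 4 libraries, without GWTM2 library 1 (blue) and without GWTM2 library 2 (red); the dotted line is the median over all genes, 0.000835. The median of the G2/M genes lies below it and that of the repair genes above it under each control, while the median of the absorptive colonocyte genes changes sign between controls, from -0.133 to 0.578.

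The genes of G2 and mitosis had lower fitted levels throughout. All 40 were tested and all 40 had a lower fitted level, 35 of them wholly below the controls against 22.2% of all genes, with a median log2 fold change of -0.519. Without GWTM2 library 1 the median was -0.382 with 38 genes lower, and without GWTM2 library 2 it was -0.661 with 40 lower. The single differences were small and DESeq2 called 1 gene lower (against 0.703% of all genes). That gene was Hmmr, a spindle protein, at 454 and 289 normalized counts in GA3M2 against 808 and 757 in GWTM2 (-1.11, DESeq2 adjusted p = 0.019). Mki67, the proliferation marker Ki-67, measured 6517 and 6107 in GWTM2 and 3947 and 4153 in GA3M2 (-0.64, DESeq2 adjusted p = 0.0076). Cenpa, the centromeric histone, measured 1141 and 965 in GWTM2 and 606 and 491 in GA3M2 (-0.94, 0.0058 by DESeq2), and Dlgap5, a spindle assembly factor, 626 and 526 in GWTM2 and 322 and 321 in GA3M2 (-0.83, 0.027 by DESeq2). Top2a, the mitotic topoisomerase, measured 5482 and 3747 in GWTM2 and 3077 and 2723 in GA3M2 and was not past the test (DESeq2 adjusted p = 0.15).

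Of 31 S phase genes tested 16 were higher and 15 lower, with a median of 0.0182. The S phase median turned with the control, to 0.124 with 22 genes higher without GWTM2 library 1 and to -0.132 with 23 lower without GWTM2 library 2. Stem and transit-amplifying genes lay higher in 16 of 17 tested, 9 of them wholly above the controls against 22.1% of all genes and 0 wholly below, with a median of 0.311 and 0 called by DESeq2. Myc, a Wnt target, measured 562 and 579 in GWTM2 and 1173 and 871 in GA3M2, Rnf43, which removes Wnt receptors, 836 and 723 in GWTM2 and 1269 and 1248 in GA3M2, and Smoc2, a matrix protein of crypt base cells, 684 and 604 in GWTM2 and 1216 and 968 in GA3M2. Their log2 fold changes of 0.83, 0.69 and 0.75 were below the fold for a call, with DESeq2 adjusted p = 0.032, 0.031 and 0.043. Lgr5, the R-spondin receptor of crypt stem cells, measured 138 and 169 in GWTM2 and 148 and 158 in GA3M2, and its groups overlapped.

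The size of the difference in the defense genes, and how many of them were higher, depended on the control. Of 21 antimicrobial and defense genes tested 16 were higher and 5 lower, 6 of them wholly above the controls (against 22.1% of all genes). Without GWTM2 library 2, 12 were higher and 9 lower. The list had a median log2 fold change of 1.26 that was 1.76 without GWTM2 library 1 and 0.237 without GWTM2 library 2. DESeq2 called 2 higher, Lyz2 and Slpi, and 1 lower, Ang4 (against 1.13% and 0.703% of all genes). Slpi, a secreted antiprotease, measured 1159.7 and 2145 in GWTM2 and 7733 and 6853 in GA3M2 (2.21 ± 0.30, SE, DESeq2 adjusted p = 1.5e-08). Of 34 NF-kB and IL-1/IL-17 response genes tested, 24 were higher and 10 lower, with a median of 0.187. That median was 0.685 without GWTM2 library 1 and -0.342 without GWTM2 library 2, so its sign was set by the control. DESeq2 called 2 of them higher, Saa1 and Steap4 (against 1.13% of all genes). The acute phase gene Saa1 measured 2850.0 and 5649.5 in GA3M2 against 1326 and 1197 in GWTM2 (1.67). The metalloreductase gene Steap4 measured 421 and 588 in GA3M2 against 143 and 27.3 in GWTM2 (2.96). Saa1 belongs to a family of near copies. The 14 interleukin receptor genes tested (6 higher, 8 lower, median -0.0506) and the 12 chemokine ligands tested (6 higher, 6 lower, median -0.0934) had 0 calls by DESeq2. Lrg1, a glycoprotein of the acute phase named after its values were seen, measured 1101 and 2.19 in GWTM2 and 4402 and 2947 in GA3M2, and its controls lay further from each other than GWTM2 library 1 lay from either mutant.

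Interferon-stimulated genes were lower in part. Of 24 interferon-stimulated and MHC class II genes tested, 7 were higher and 17 lower, 9 wholly below and 0 wholly above the controls (against 22.2% and 22.1% of all genes), with a median of -0.766, which was -0.11 without GWTM2 library 1 and -1.48 without GWTM2 library 2. The 4 genes that DESeq2 called, all lower (against 0.703% of all genes), belong to the type I interferon response. Oasl2, an oligoadenylate synthetase-like protein, measured 671 and 1095 in GWTM2 and 186 and 135 in GA3M2 (-2.43 ± 0.31, SE, DESeq2 adjusted p = 1.5e-09). Oas2 measured 82.6 and 284 in GWTM2 and 19.6 and 10.5 in GA3M2 (-3.32), Isg15, whose upstream sequence is given above, 82.6 and 231 in GWTM2 and 32.3 and 26.8 in GA3M2 (-2.19), and Ifi44 73 and 149 in GWTM2 and 31.3 and 11.5 in GA3M2 (-2.39), with DESeq2 adjusted p = 0.00014, 0.0096 and 0.033. edgeR over 11 libraries called none of the 4, with adjusted p from 0.13 to 0.22, and Oas genes are a family with shared sequence. The MHC class II genes split the controls instead: the invariant chain gene Cd74 measured 15900.2 and 141 in GWTM2 and 5983 and 5244 in GA3M2, H2-Aa 2605 and 19.7 in GWTM2 and 1169.5 and 1260.5 in GA3M2, and H2-Ab1 4023 and 56.8 in GWTM2 and 2112 and 1713 in GA3M2. In all 3 the GA3M2 libraries lay between the controls.

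BMP pathway genes gave no common direction in the goblet cells. Of 22 tested 11 were higher and 11 lower, with a median of -0.029. DESeq2 called 2 higher (against 1.13% of all genes), the ligand gene Bmp8b and the BMP antagonist gene Chrd (chordin). Bmp8b measured 27.8 and 45.9 in GWTM2 and 206 and 533 in GA3M2 (3.17 ± 0.53, SE), with adjusted p = 1.1e-06 by DESeq2 and 0.045 by edgeR over 11 libraries. Chrd measured 28.8 and 19.7 in GWTM2 and 67.5 and 149.5 in GA3M2 (2.03, DESeq2 adjusted p = 0.032). Bmp3, an antagonist-like ligand, was higher in both GA3M2 libraries, at 605 and 646 in GA3M2 against 239 and 399.9 in GWTM2, and was not called (DESeq2 adjusted p = 0.086). Among direct BMP target genes, the inhibitor of DNA binding genes Id1 (1687 and 2134 in GWTM2 and 1331 and 1555 in GA3M2) and Id3 (361 and 942 in GWTM2 and 163 and 338 in GA3M2) lay below both controls by -0.40 and -1.31 without passing DESeq2 (adjusted p = 0.51 and 0.18).

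Other lineages and regional programs differed in size and in how far they depended on the control. Absorptive colonocyte genes (30 tested, 19 higher, 11 lower) had a median of 0.332 that was -0.133 without GWTM2 library 1 and 0.578 without GWTM2 library 2. Enteroendocrine genes (11 tested, 8 higher, 3 lower) had a median of 0.427. Of these, DESeq2 called 2 higher (against 1.13% of all genes), the prohormone processing genes Pcsk1 and Cpe. Tuft cell genes (8 tested, 7 higher, 1 lower) had a median of 0.134, with -0.0141 and 0.547 without GWTM2 library 1 and 2 in turn, and 0 calls by DESeq2. Deep crypt secretory and Paneth genes (11 tested, 5 higher, 6 lower) had a median of -0.161, with 0.189 and -0.305 without GWTM2 library 1 and 2 in turn. Among them DESeq2 called 1 higher, Lyz2, and 3 lower, Mptx1, Ang4 and Reg4 (against 1.13% and 0.703% of all genes). Genes of distal colon identity (5 tested, 2 higher, 3 lower) had a median of -0.325. Genes of proximal colon identity (10 tested, 3 higher, 7 lower) had a median of -0.657 that was -1.12 without GWTM2 library 1, -0.433 without GWTM2 library 2 and -0.00978 without GA3M2 library 1. The 5 gasdermin genes tested were lower in 4, with a median of -1.05 that was -2.02 without GWTM2 library 1 and -0.325 without GWTM2 library 2. Sulfotransferase and sulfate supply genes (14 tested, 3 higher, 11 lower) had a median of -0.202, with -0.556 and -0.0259 without GWTM2 library 1 and 2 in turn, and the 8 mitochondrially encoded subunits tested a median of -0.0284. Immediate early and stress genes (20 tested, 17 higher, 3 lower) had a median of 0.379 that was 0.815 without GWTM2 library 1 and -0.107 without GWTM2 library 2.

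The effect of stromal Alk3 loss in the distal colon was set beside that in the proximal colon, where other libraries and other controls were used. A test of the difference between the 2 effects over 8 libraries called 0 of 13191 genes, with a smallest limma adjusted p of 0.306, and 133 genes (1.01%) passed at an unadjusted p and the same fold. edgeR over 7 libraries also called 0. A p that misses the threshold does not show that the segments respond alike. For Muc2 the log2 fold change was -2.26 distally and -3.63 proximally, a difference of 1.37 ± 0.63 (SE), and for Clca1 -3.93 and -4.73, a difference of 0.79 ± 1.06 (SE). Mptx1 gave -7.00 and -8.96, Clu 3.66 and 2.09, Cldn4 3.15 and 3.48, Ly6g 3.54 and 5.85, and Arg1 4.04 and 1.91. These 7 genes had the same sign in both segments, but they were chosen for description and do not stand for all genes. The gene with the smallest adjusted p of this test, the laminin subunit gene Lamb1, named after its values were seen, had 2.47 distally and -2.07 proximally, a difference of 4.54 ± 0.52 (SE). The G2/M genes had a median of -0.519 distally and -0.307 proximally, the repair genes 0.634 and 0.82, and the stem and transit-amplifying genes 0.311 and -0.0465. For the interferon-stimulated and MHC class II genes the median was -0.766 distally and 0.33 proximally.

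Stromal Smad4 loss (GS4M2) was measured in the distal colon against the same 2 GWTM2 libraries, so the 2 knockout effects share their controls and were compared directly between knockout libraries. On 6 distal libraries with common size factors, limma called 7 of 13045 genes (0.0537%), all 7 higher in GA3M2 than in GS4M2, and 590 (4.52%) passed at an unadjusted p. With the SE and the limma adjusted p of each, the called genes included Clu, with a log2 difference of 3.68 ± 0.29 (adjusted p = 0.026), A4gnt (2.33 ± 0.21, 0.037), Mvb12b, an endosomal sorting subunit (3.99 ± 0.29, 0.022), Muc3a (1.54 ± 0.11, 0.022), Car8, a carbonic anhydrase-related protein (2.95 ± 0.14, 0.0045), and Insrr, an alkali-sensing receptor kinase (5.36 ± 0.49, 0.037). The remaining gene carries a name altered to a date in the table. For Clu the difference came with a GS4M2 level of 22.7 and 26.4 normalized counts, near the controls. For Car8 and Insrr it came with GS4M2 levels of 275 and 276 for Car8 and 6.62 and 21 for Insrr, below the controls. GS4M2 also lay below both controls for A4gnt (536 and 486), Mvb12b (13.2 and 11.8) and Muc3a (1696.5 and 1545). The same held for the gene with the altered name (627 and 645). In all of these genes except Clu, GS4M2 was thus below and GA3M2 above both controls. Muc2 measured 237366 and 192896 in GS4M2 on the 6-library scale, and its direct log2 difference of -3.88 ± 0.44 (SE) was not called (adjusted p = 0.077). Leaving out either GA3M2 library, or GS4M2 library 1, left 0 calls and leaving out GS4M2 library 2 left 1, while leaving out GWTM2 library 1 or 2 gave 183 and 197, so the count depended on which libraries were in the fit.

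**Figure D4:**
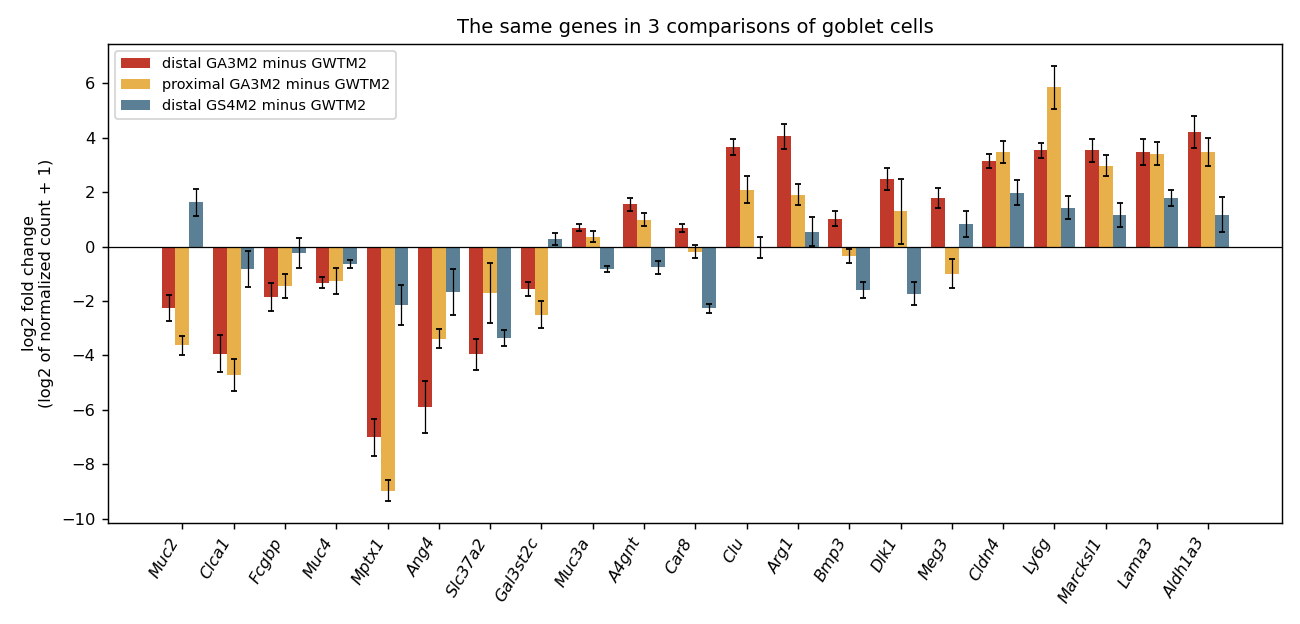
Log2 fold change (bars, with SE) of 21 genes in distal GA3M2, proximal GA3M2 and distal GS4M2 goblet cells, each against its GWTM2 controls; the 2 distal comparisons share their controls. Muc2 is negative in both GA3M2 comparisons, at -2.26 and -3.63, and 1.62 in distal GS4M2, and Clu is 3.66 and 2.09 in GA3M2 and -0.02 in GS4M2.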

How the data were processed

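RNA of Muc2-mCherry+ cells sorted from the distal colon was sequenced as SMARTER mRNA-seq libraries. The authors aligned reads to mm10 with STAR 2.5.3 and deposited normalized counts from DESeq2 1.28.1, a signal equal to reads divided by a library size factor; the counting tool, its strand setting and its treatment of reads shared between near copies are not given in the sources used here. In 14 of 16 columns used, every value (100%) was a whole multiple of 1 step per library within a tolerance of 0.1 reads, and reads were recovered. The others were not used in count fits, which lack proximal GA3M2 library 1 for that reason.

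Genes with a mean of at least 10 were tested with limma 3.58.1 (trended, R 4.3.3) on log2(value + 1), two-sided, with Benjamini-Hochberg adjustment over all genes tested. Calls needed an adjusted p under 0.05 together with a difference of 1 log2 unit or more in either direction. edgeR 4.0.16 (quasi-likelihood, TMM) and DESeq2 1.42.0 on recovered reads were alternatives, with other pseudocounts (0.1, 10), filters, scaling and left-out libraries. The count tests suit recovered reads, but the deposited unit is normalized, so limma on the log scale was kept as the main test. The limma, edgeR and DESeq2 fits of the 4 distal libraries were tested on simulated data, with the spread of each gene capped at the median spread. The simulated libraries therefore lacked the larger spreads of the real ones. No other fit was simulated. Intervals of read ratios are exact at 95% and cover counting error only.

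Named genes were Bmpr1a, Gli1 and the genes of the study's 2 lists, the 12 largest increases and 12 largest decreases at an unadjusted p without overlap of groups (unnamed gene models excluded), and up to 4 members of each list with the smallest p, or every member of a list of 8 or fewer; not each gene the rule allows is described, and some are not reported here. Genes called by both edgeR and DESeq2 on the 4 libraries were also to be named, but edgeR called 0. The genes and lists were chosen with earlier results of these data known. Gene positions are of GRCm38, the build named mm10.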

Additional observations from a re-analysis of the deposited data

How the results depend on the processing

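Count of calls. limma called 0 genes between distal GA3M2 and GWTM2 with either pseudocount, without a filter, with a minimum mean of 50 and with upper-quartile rescaling, as did edgeR on 4 and on 6 libraries. DESeq2 called 240 and edgeR over 11 libraries 85, and leaving out each library in turn gave 0 to 640. At an unadjusted p the 539 genes became 329 with a minimum mean of 50 and 387 to 1042 with a library left out. The 7 genes called between GA3M2 and GS4M2 became 11 with a pseudocount of 10, 290 by DESeq2 and 0 to 197 with a library left out. The test of the difference between segments stayed at 0 calls in each alternative. With the replicate number as a replicate block, 4 genes were called between GA3M2 and GWTM2 (Ly6g, Cldn4, Vill and Dlk1) and 83 between GA3M2 and GS4M2. Deviations of same-numbered libraries correlated at 0.302 with only 2 pairs, and the labels do not tie a number to a litter or day, so the numbers were not taken as pairs. Upper-quartile rescaling shifted the median over all genes by 0.00412.

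Of the 106 genes described, 93 kept their sign in all alternatives run. Where a sign turned, the range of log2 fold changes with a library left out was -0.369 to 1.14 for Muc3, -0.15 to 0.432 for Muc13, -0.0851 to 0.39 for Muc20, -2.39 to 0.109 for Slc26a3, -0.835 to 0.947 for Sult1c2, -1.9 to 0.159 for Chp2, -0.761 to 0.267 for Zg16, -0.917 to 0.327 for Tff3, -0.147 to 0.144 for Lgr5, -1.51 to 5.3 for Cd74, -1.1 to 5.88 for H2-Aa, -1.08 to 5.04 for H2-Ab1 and -0.478 to 10 for Ddx3y. In the order edgeR, DESeq2, edgeR on 6 and on 11 libraries, the value was -0.175, -0.183, -0.171 and -0.17 for Sult1c2, -0.516, -0.514, -0.511 and -0.513 for Cd74, -0.113, -0.11, -0.108 and -0.111 for H2-Aa and -0.0955, -0.0931, -0.0909 and -0.0934 for H2-Ab1. Upper-quartile rescaling gave 0.00289 for Lgr5. The cause of these turns was not tested. Medians of the 34 gene lists were judged against their SD over all pairings of a GA3M2 with a GWTM2 library. By that measure 444 values moved by less and 31 by more. The pairings share libraries, and the SD includes the disagreement of the controls. The edgeR fits planned over 12 and over 8 libraries were not run, because reads of 1 proximal GA3M2 library could not be recovered, and were replaced, after seeing the data, by fits over 11 and 7. With 2 libraries per group and a sex difference between the controls, precision is low. Sex was also unbalanced between the genotypes and can enter the fold changes. Depth limits the genes at or near the floor of 3 reads.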

Other observations

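Of the imprinted domain on chromosome 12, 4 genes noticed after their values were seen, Dlk1, Meg3, Rian and Mirg, were called higher by DESeq2 and not by limma. They were not tested as a group. Dlk1, a paternally expressed Notch-like ligand (chr12:109452823-109463336, GRCm38), measured 788 and 377 normalized counts in GWTM2 and 3792 and 2423 in GA3M2, with a log2 fold change of 2.47 ± 0.40 (SE) and DESeq2 adjusted p = 4.3e-07. The maternally expressed noncoding RNA Meg3 measured 983 and 2093 in GWTM2 and 4367 and 5524 in GA3M2 (1.77, DESeq2 adjusted p = 0.00084). Rian measured 624 and 1129 in GWTM2 and 2449.7 and 2603 in GA3M2 (1.59), and Mirg, a microRNA host transcript, 34.6 and 30.6 in GWTM2 and 202 and 138 in GA3M2 (2.32), with DESeq2 adjusted p = 0.00033 and 3.9e-05. In all 4 genes both GA3M2 libraries lay above both controls. edgeR over 11 libraries put none of them under 0.05, with adjusted p from 0.052 to 0.11. In the proximal colon the log2 fold change was positive for Dlk1 (1.30) and negative for Meg3 and for Rian (-1.37), and the distal minus proximal differences of 1.18 ± 1.46, 2.78 ± 0.74 and 2.96 ± 0.88 (SE) did not pass limma.

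A few single genes with a role in retinoid metabolism were also chosen after their values were seen and were not tested as a group. Aldh1a3, which makes retinoic acid, measured 102 and 29.5 in GWTM2 and 873 and 1227 in GA3M2, with a log2 fold change of 4.21 ± 0.58 (SE) and adjusted p = 1.2e-11 by DESeq2 and 0.034 by edgeR over 11 libraries. The retinol-binding protein gene Rbp2 measured 12.5 and 33.9 in GWTM2 and 82.2 and 307 in GA3M2. Dhrs9, a retinol dehydrogenase, measured 558 and 429 in GWTM2 and 1172 and 2095 in GA3M2. DESeq2 called both higher, with adjusted p = 0.0056 and 0.00011. Of the Ly6 family, Ly6d measured 26.9 and 1.09 in GWTM2 and 101 and 184 in GA3M2 and was called by DESeq2 (adjusted p = 0.038), while Ly6m, at 377 and 2328 in GWTM2 and 4368 and 7476 in GA3M2, was not (adjusted p = 0.45).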
